A study of Mus musculus with 6 samples.

Results

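Transcripts of the skeletal muscle sarcomere were followed in mouse bone marrow, through 40 genes that build the contractile filaments of fast and slow muscle fibres, couple them to calcium or fuel them. The genes were taken as a fixed list of symbols, and a probe set counted for a gene when the array's annotation gave it that symbol and no other. All 40 genes were found, among 18193 genes measured in this way, with 73 probe sets between them. Each gene was read from its brightest probe set by the mean of all 6 arrays, and the others are given further on. The tissue was marrow of adult female mice, with the crosses named (AKR/J x FVB/NJ)F1, here AKR F1, and (DBA/2J x FVB/NJ)F1, here DBA F1, on 3 arrays each. Both crosses share the FVB/NJ parent and both were killed under Avertin anaesthesia, with the tissue frozen before Trizol extraction of total RNA. The labels do not say which animal or animals each array came from, so errors below are between arrays, and every standard deviation (SD) is their spread. Values are log2 expression values as deposited, and every difference is AKR F1 minus DBA F1 with its standard error (SE) in the limma model. That model draws each gene's variance toward the variance of all genes. For a gene with widely spread arrays the SE is therefore smaller than its own arrays alone would give. The 40 genes had a median range within the group of 1.18 in AKR F1 and 2.65 in DBA F1, against 0.19 and 0.26 for all genes.

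A sarcomere is the repeating unit of a muscle fibre, in which myosin filaments pull on actin filaments when calcium binds troponin. Fast and slow fibres use different genes for many of the same parts: the heavy and light chains of myosin, the 3 troponin subunits that bind calcium, block actin and anchor to tropomyosin, and the calcium pump of the sarcoplasmic reticulum. Other parts, such as titin, nebulin and skeletal actin, serve both kinds of fibre. Muscle fibres are not a cell type of the marrow itself, which makes blood cells and lies inside bones that carry muscle on their outer face. The marrow label was borne out by blood cell genes: Camp, a neutrophil granule peptide, averaged 14.07 in AKR F1 and 13.93 in DBA F1, and Alas2, the red cell enzyme of heme synthesis, 13.27 and 12.93. Of the 16 blood cell markers Hba-a1, a globin gene, was the one at the floor, with 3.70 and 3.68, where the lower quartile of all probe sets was 3.72.

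To show the control regions of a fast gene and of matched fast and slow genes whose values follow, the 250 bases before the start of Myh4, of the myosin light chain genes Myl1 (fast) and Myl3 (slow) and of the troponin C genes Tnnc2 (fast) and Tnnc1 (slow) are printed here from RefSeq (GRCm38.p6). They lie at chr11:67237562-67237811, plus strand, chr1:66945057-66945306, minus strand, chr9:110763428-110763677, plus strand, chr2:164779735-164779984, minus strand and chr14:31208062-31208311, plus strand. Capitals mark the E-box CANNTG, the core bound by myogenic basic helix-loop-helix factors, and the MEF2 motif, and all motifs were searched on both strands.
Myh4: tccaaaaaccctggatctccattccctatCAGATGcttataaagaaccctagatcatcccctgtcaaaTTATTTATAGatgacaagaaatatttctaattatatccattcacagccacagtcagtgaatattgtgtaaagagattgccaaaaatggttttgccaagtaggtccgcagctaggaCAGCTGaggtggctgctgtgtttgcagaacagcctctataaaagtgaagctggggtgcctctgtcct
Myl1: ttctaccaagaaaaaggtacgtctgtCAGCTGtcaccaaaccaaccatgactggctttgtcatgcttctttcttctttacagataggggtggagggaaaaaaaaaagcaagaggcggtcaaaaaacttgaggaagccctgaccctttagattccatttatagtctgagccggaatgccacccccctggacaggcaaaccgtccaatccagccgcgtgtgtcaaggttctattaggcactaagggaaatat
Myl3: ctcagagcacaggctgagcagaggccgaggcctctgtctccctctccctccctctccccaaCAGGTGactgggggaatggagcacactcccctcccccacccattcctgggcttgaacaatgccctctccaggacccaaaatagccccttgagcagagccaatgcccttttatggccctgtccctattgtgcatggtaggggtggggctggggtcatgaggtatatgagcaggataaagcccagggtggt
Tnnc2: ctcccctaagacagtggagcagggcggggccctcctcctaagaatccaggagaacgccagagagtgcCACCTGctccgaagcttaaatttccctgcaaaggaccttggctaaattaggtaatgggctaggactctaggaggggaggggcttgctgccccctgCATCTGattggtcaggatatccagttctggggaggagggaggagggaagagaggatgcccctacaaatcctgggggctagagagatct
Tnnc1: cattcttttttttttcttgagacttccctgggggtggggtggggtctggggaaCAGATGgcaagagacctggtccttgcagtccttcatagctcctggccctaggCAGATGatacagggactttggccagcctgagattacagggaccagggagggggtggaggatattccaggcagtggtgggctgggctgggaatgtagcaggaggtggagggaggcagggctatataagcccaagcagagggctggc
Of the 40 genes 31 had such a sequence. An E-box was found in 27 of the 31 (87.1%), against 66.0% of the 27025 genes with a promoter sequence. The MEF2 motif was found in 6 (19.4%, against 3.01%), the CArG motif of serum response factor in 4 (12.9%, against 1.40%) and CATTCC, the core of the MCAT element, in 10 (32.3%, against 12.6%). TATAAA stood in 5 (16.1%, against 13.0%). By fibre kind an E-box was in 6 of 9 fast genes (66.7%, near the share of all genes), 9 of 9 slow and 12 of 13 shared genes. The MEF2 motif was in 3 of 9 fast, 2 of 9 slow and 1 of 13 shared genes. In Myh4 it begins at base -182 counted from the start, and 1 of the gene's 3 TATAAA matches lies inside it. These are matches of letters in this window and no measure of binding.

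Fast-fibre genes were lower in AKR F1 marrow. Of 13 fast genes 8 fell, 5 did not pass the test and none rose, in limma's moderated test adjusted over all 18193 genes at a threshold of 0.05, under which 6.04% of all genes fell. Their median difference was -2.46, where that of all genes was 0.06, and 12 of the 13 were at least 2-fold lower, as were 0.561% of all genes. In 11 of the 13 all AKR F1 arrays lay below all DBA F1 arrays, which held for 13.7% of all genes, and in none did they all lie above (23.0% of all genes). In bulk marrow, fewer fibres in the sample and less RNA per fibre cannot be told apart. The labels do not say how bones were cleaned or marrow collected. Unequal amounts of outer muscle taken along with the marrow therefore cannot be told apart from a difference between the crosses.

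Myh4, the myosin heavy chain of the fastest (IIb) fibres, had 7.65, 7.03 and 6.42 in AKR F1 replicates 1 to 3, against 12.32, 9.02 and 10.77 in DBA F1. The groups did not overlap, and the DBA F1 arrays lay far apart. The means were 7.03 ± 0.61 in AKR F1 and 10.70 ± 1.65 in DBA F1 (SD, n = 3 each), -3.67 apart with a limma SE of 0.70 and an adjusted p of 0.014, or 12.7-fold higher in DBA F1. The log2 difference was -2.86 without DBA F1 replicate 1 and -4.51 without DBA F1 replicate 2. Myh1, the heavy chain of IIx fibres, had 6.16, 6.74 and 6.88 in AKR F1, against 11.01, 8.61 and 7.89 in DBA F1, and fell by 2.58 (± 0.67 SE, limma adjusted p = 0.036). Both lie with Myh2 in a cluster of close copies on chromosome 11, so reads of 1 copy by a probe set of another were not told apart here.

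The fast light chains and troponins followed Myh4. Myl1, the fast essential light chain, had 8.72, 8.76 and 7.59 in AKR F1, against 12.76, 9.70 and 11.36 in DBA F1 (log2 difference -2.91 ± 0.66 SE, limma adjusted p = 0.024). Mylpf, the fast regulatory light chain, had 7.96, 7.97 and 7.63, against 11.84, 8.88 and 10.23 in DBA F1, a difference of -2.46. The AKR F1 arrays were close together in Mylpf (SD 0.20), and the DBA F1 arrays were not (SD 1.48).

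Tnnc2, the fast calcium-binding troponin, had 8.74, 9.40 and 7.73 in AKR F1, against 12.76, 10.24 and 11.78 in DBA F1 (log2 difference -2.97 ± 0.61 SE, limma adjusted p = 0.017). Tnnt3, the fast troponin that holds the complex to tropomyosin, had 7.20, 7.38 and 6.11, against 11.30, 8.45 and 9.63 in DBA F1 (difference -2.89). Tnni2, the fast inhibitory troponin, had 8.01, 8.31 and 7.19, against 12.06, 9.05 and 10.07 in DBA F1 (difference -2.55). In each of these subunits DBA F1 replicate 1 was the highest array, replicate 3 the next and replicate 2 the third, above every AKR F1 array. Mybpc2, the fast form of a protein that binds the myosin filament, had 6.84, 6.74 and 6.41 in AKR F1, against 10.59, 7.50 and 8.99 in DBA F1 (difference -2.36). The adjusted p of Mylpf, Tnnt3, Tnni2 and Mybpc2 was 0.029, 0.021, 0.035 and 0.038 in limma.

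The other 5 fast genes did not pass. For 3 of them the arrays of the groups still did not overlap and the adjusted p lay just above the threshold. Actn3, the fast alpha-actinin of the Z-disc, had 7.78, 7.21 and 6.85 in AKR F1, against 11.364, 7.995 and 9.641 in DBA F1 (log2 difference -2.39 ± 0.70 SE, limma adjusted p = 0.052). Pvalb, the calcium buffer parvalbumin, differed by -2.28 and Atp2a1, the fast calcium pump, by -2.13 (adjusted p = 0.055 and 0.057 in limma). Myoz1, a Z-disc protein of fast fibres, had 6.99, 6.55 and 6.66 in AKR F1, against 9.16, 6.81 and 7.46 in DBA F1, so that AKR F1 replicate 1 lay above DBA F1 replicate 2. Myh2, the heavy chain of IIa fibres, which are fast and rich in mitochondria, stood apart: it had 3.80, 7.37 and 4.08 in AKR F1, against 7.56, 6.61 and 3.66 in DBA F1 (log2 difference -0.86 ± 1.13 SE, limma adjusted p = 0.65). Its level was near the lower quartile of the arrays in 2 AKR F1 arrays and 1 DBA F1 array and high in the other 3.

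**Figure D1:**
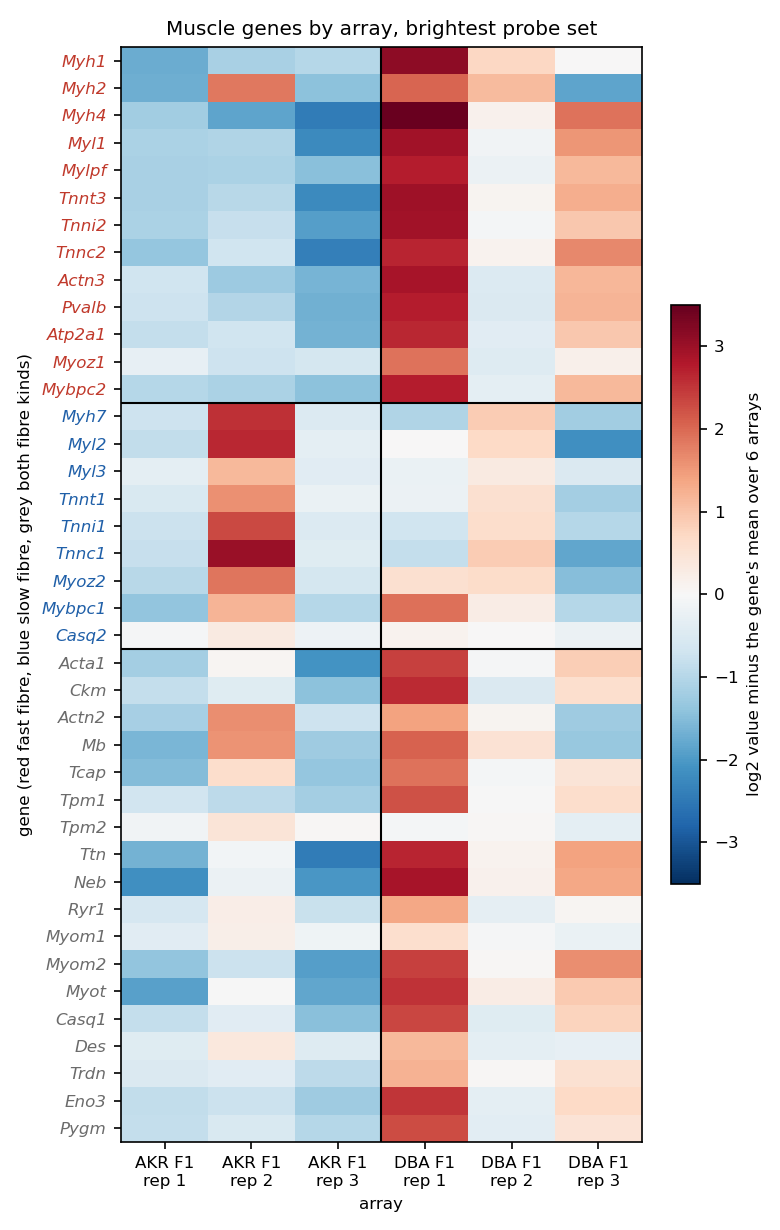
Colours show, for each of the 40 genes (rows) and each of the 6 arrays (columns, AKR F1 left of DBA F1), the log2 value minus the gene's mean over the 6 arrays. Fast genes (13, red names) were highest in DBA F1 replicate 1, while 8 of the 9 slow genes (blue names) were highest in AKR F1 replicate 2.

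Slow-fibre genes did not follow the fast ones. Of 9 slow genes none passed in limma in either direction (0 of 9 also at an unadjusted p under 0.05), 8 had a positive difference and 1 a negative one, with a median of 0.56. Under that unadjusted p lay 5645 of all 18193 genes. The groups overlapped in all 9. Tnnc1, the calcium-binding troponin of slow fibres and heart, had 6.01, 9.83 and 6.40 in AKR F1, against 5.996, 7.70 and 4.99 in DBA F1 (log2 difference 1.19 ± 0.996 SE, limma adjusted p = 0.46). Myh7, the slow myosin heavy chain, had 6.15, 9.42 and 6.40, against 5.83, 7.76 and 5.66 in DBA F1 (log2 difference 0.91 ± 0.86 SE). AKR F1 replicate 2 was the highest and DBA F1 replicate 2 the second highest array in both genes.

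The slow light chains and the remaining slow troponins had the same 2 high arrays. Myl2, the slow regulatory light chain, had 5.90, 9.37 and 6.40 in AKR F1, against 6.76, 7.43 and 4.60 in DBA F1 (log2 difference 0.96 ± 0.95 SE). Myl3, the slow essential light chain, had 6.43, 7.89 and 6.37, against 6.54, 7.09 and 6.26 in DBA F1 (difference 0.26). Tnnt1, the slow tropomyosin-binding troponin, had 7.19, 9.33 and 7.51, against 7.53, 8.29 and 6.53 in DBA F1 (difference 0.56). These light chains and this troponin were lowest in DBA F1 replicate 3, the array in which most fast genes were second highest. Tnni1, the slow inhibitory troponin, had 5.29, 8.38 and 5.59, against 5.37, 6.66 and 5.05 in DBA F1 (difference 0.73), and Myoz2, a Z-disc protein of slow fibres and heart, 4.91, 7.74 and 5.25, against 6.43, 6.52 and 4.37 in DBA F1 (difference 0.19). Without AKR F1 replicate 2 the median of the slow genes was -0.14, and the differences of Myh7 and Tnnc1 were -0.14 and -0.02.

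The last 2 slow genes differed from the others in their pattern. Mybpc1, the slow form of the myosin-binding protein, had 5.52, 8.08 and 5.89 in AKR F1, against 8.84, 7.15 and 5.89 in DBA F1 (log2 difference -0.79 ± 0.80 SE), so that both AKR F1 replicate 2 and DBA F1 replicate 1 were high. Casq2, the calcium store protein of slow fibres and heart, was nearly level at 4.92 to 5.44 over the 6 arrays.

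Of the 18 genes listed here under both fibre kinds 6 fell, 12 did not pass and none rose, with a median of -1.69. How far each of them is used in fast and in slow fibres was not measured. Of all genes 6.04% fell. Without DBA F1 replicate 1 the median was -0.95. Neb, the giant ruler protein of the thin filament, had 4.12, 6.08 and 4.23 in AKR F1, against 9.16, 6.43 and 7.64 in DBA F1 (log2 difference -2.93 ± 0.70 SE, limma adjusted p = 0.028), and in AKR F1 replicates 1 and 3 it was near the lower quartile of the arrays. Ttn, the elastic protein that spans the sarcomere, had 6.49, 8.05 and 5.70, against 10.81, 8.27 and 9.54 in DBA F1 (difference -2.79). Myom2, a protein of the M-band that ties myosin filaments together, had 5.67, 6.30 and 5.11, against 9.43, 7.07 and 8.68 in DBA F1 (difference -2.70). In Neb and Ttn, AKR F1 replicate 2 was the highest AKR F1 array and came close to DBA F1 replicate 2.

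Myot, a Z-disc protein, had 4.36, 6.24 and 4.43 in AKR F1, against 8.77, 6.51 and 7.17 in DBA F1 (difference -2.47). Tpm1, a tropomyosin that winds along actin, had 9.34, 9.09 and 8.82, against 12.24, 9.99 and 10.62 in DBA F1 (difference -1.87). Trdn, triadin, which holds the calcium release channel to its calcium store, had 7.28, 7.38 and 6.86, against 8.99, 7.80 and 8.31 in DBA F1 (log2 difference -1.20 ± 0.27 SE). The adjusted p of Ttn, Myom2, Myot, Tpm1 and Trdn lay between 0.016 and 0.034 in limma, and no array of AKR F1 reached the lowest DBA F1 array in any of these genes.

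The other 12 shared genes did not pass. Acta1, skeletal actin, had 9.61, 10.87 and 8.73 in AKR F1, against 13.21, 10.76 and 11.67 in DBA F1 (log2 difference -2.15 ± 0.65 SE, limma adjusted p = 0.060). Ckm, muscle creatine kinase, and Casq1, the main calcium store protein of skeletal fibres, each differed by -1.80, Eno3, muscle enolase, by -1.90 and Pygm, muscle glycogen phosphorylase, by -1.58 (adjusted p from 0.060 to 0.10 in limma). Mb, myoglobin, had 6.20, 9.35 and 6.55 in AKR F1, against 9.86, 8.30 and 6.45 in DBA F1 (difference -0.84), and Actn2, the alpha-actinin of all fibres, 5.44, 8.23 and 5.88, against 8.02, 6.70 and 5.37 in DBA F1 (difference -0.17). In Mb and Actn2 the highest arrays were AKR F1 replicate 2 and DBA F1 replicate 1, as in Mybpc1 and Myh2. Tcap, the titin cap, differed by -1.51, Ryr1, the calcium release channel, by -0.75, the intermediate filament gene Des by -0.35 and the M-band gene Myom1 by -0.22. Tpm2, a second tropomyosin, was at 9.91 to 10.69 on all arrays (difference 0.24).

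**Figure D2:**
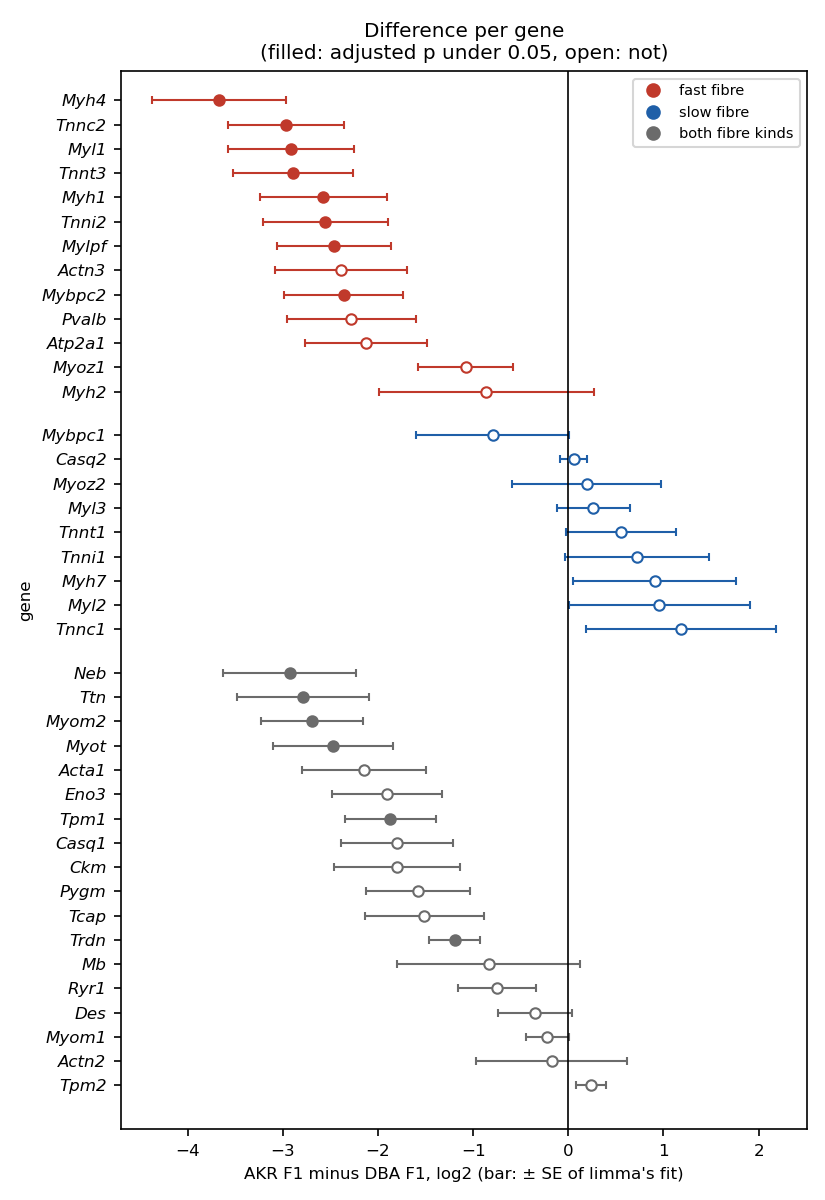
Points give the difference AKR F1 minus DBA F1 (x axis, log2) of each of the 40 genes, bars give its limma SE, genes are grouped by fibre kind and ordered by size, and filled points passed the test. All 13 fast genes lie left of 0 and 8 of the 9 slow genes lie right of it, with wide errors.

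Over all 40 genes 14 fell, none rose and 26 did not pass, against 6.04% of all genes that fell, 9.20% that rose and 15.2% that did either. The test rested on few arrays with a wide spread: the count of 14 became 1 (Myh4), 5 and 0 without AKR F1 replicates 1, 2 and 3, and 18, 21 and 6 without DBA F1 replicates 1, 2 and 3. In the same order the count over all genes, 2771 with every array, was 1396, 685 and 793, then 3248, 1585 and 2147. The count of 8 fast genes became 1, 1 and 0 in the first 3 of these fits and 4 without DBA F1 replicate 3. With a variance trend and robust estimation 1 of the 40, Trdn, and 0 fast genes passed, although 2772 of all genes did, against 2771 in the main fit. The calls of the 40 genes therefore depended on the variance model.

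Related forms of the same part, fast over slow in most pairs, were set against each other within each array, for 10 pairs. Actn2 and Casq1 are listed here under both fibre kinds. Actn3 over Actn2 and Casq1 over Casq2 are therefore not strictly fast against slow. A log ratio of 2 probe sets has no meaning as a level, but its change between arrays shows unequal change of the pair. The log2 ratio was lower in AKR F1 than in DBA F1 in all 10 pairs, by -1.27 to -4.58. Myh4 over Myh7 was 1.499, -2.39 and 0.02 in AKR F1, against 6.49, 1.26 and 5.11 in DBA F1 (difference -4.58), and Tnnc2 over Tnnc1 was 2.73, -0.43 and 1.33, against 6.76, 2.54 and 6.79 in DBA F1 (difference -4.15). In both pairs AKR F1 replicate 1 lay above DBA F1 replicate 2, so the groups overlapped.

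Tnnt3 over Tnnt1 was 0.01, -1.94 and -1.40 in AKR F1, against 3.77, 0.16 and 3.10 in DBA F1 (difference -3.45), without overlap. Myl1 over Myl3 (-3.18) and Casq1 over Casq2 (-1.86) also did not overlap. The differences were -3.42 for Mylpf over Myl2, -3.28 for Tnni2 over Tnni1, -2.21 for Actn3 over Actn2, -1.57 for Mybpc2 over Mybpc1 and -1.27 for Myoz1 over Myoz2. In the exact two-sided permutation test the pairs without overlap had p = 0.1, the smallest that 3 arrays against 3 can give, and the others 0.2 to 0.5. After adjustment over the 10 pairs the smallest was 0.25. With 3 arrays a group no pair could reach a threshold of 0.05, so these tests do not separate pairs that differ from pairs that do not. Without AKR F1 replicate 2 and DBA F1 replicate 1 the difference of Myoz1 over Myoz2 turned to 0.06 and the other 9 kept their sign.

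**Figure D3:**
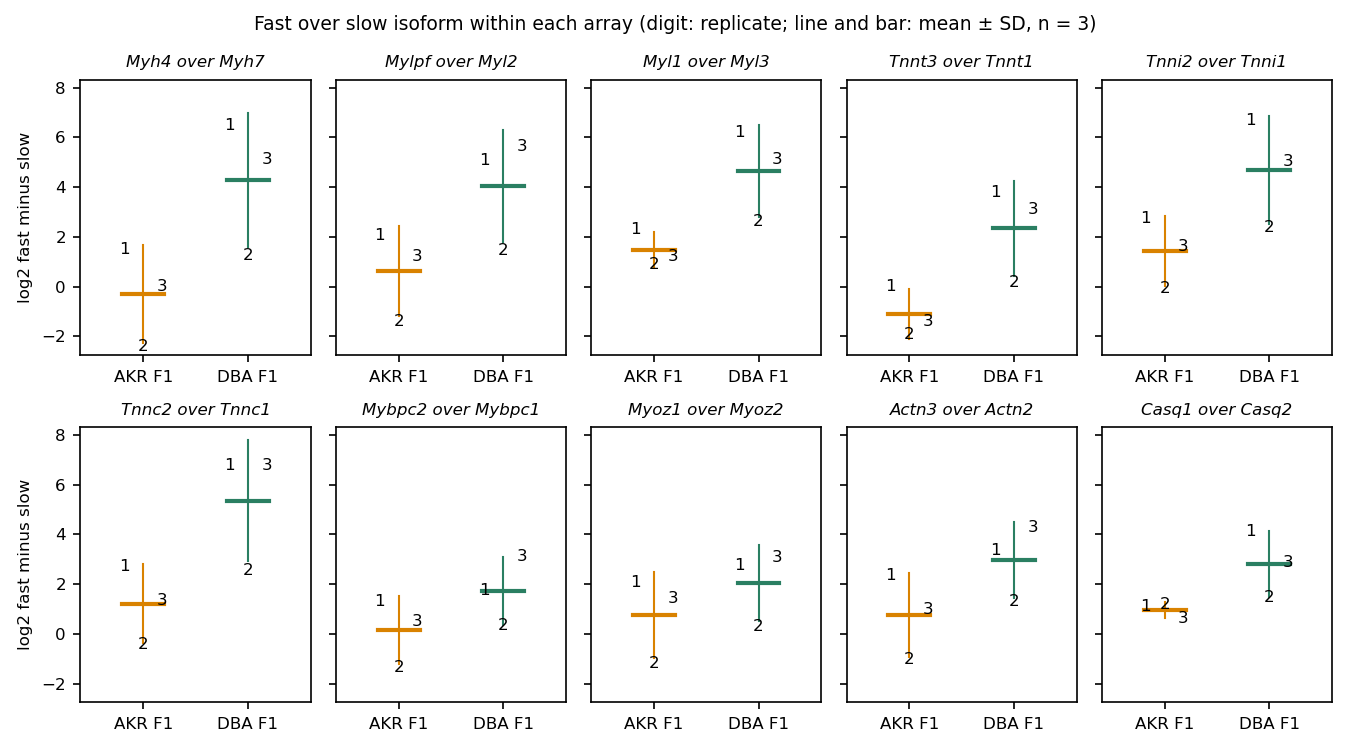
Each panel shows the log2 value of the first gene of a pair minus that of the second within each array (y axis), AKR F1 left of DBA F1. Digits mark the replicates, and a line and bar give the mean ± SD (n = 3). Actn2 and Casq1 are listed under both fibre kinds, so their pairs are not strictly fast against slow. In 9 of the 10 panels AKR F1 replicate 2 is the lowest of its group, and in all 10 DBA F1 replicate 2 is the lowest of its own.

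The order of the highest arrays was the same in most fast genes, and another order in most slow genes. DBA F1 replicate 1 was the highest array for 30 of the 40 genes and AKR F1 replicate 2 for the other 10, against 15.2% and 22.9% of all genes. The order DBA F1 replicate 1, then 3, then 2, then all AKR F1 arrays held for 10 of the 13 fast genes, 8 of the 18 shared genes and none of the 9 slow genes, and for 2.04% of all genes. AKR F1 replicate 2 first and DBA F1 replicate 2 second held for 7 of the 9 slow genes, for no fast or shared gene, and for 2.23% of all genes. These orders were noticed in the same values and carry no test.

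Arrays of the same group lay far apart. In DBA F1 the 3 arrays spanned a median of 3.06 for the fast genes and 2.10 for the slow genes, and in AKR F1 0.96 and 2.83, where the median over all genes was 0.26 in DBA F1 and 0.19 in AKR F1. AKR F1 replicate 2 lay above the mean of its group's other arrays by a median of 2.66 for the slow genes and 0.22 for the fast genes. DBA F1 replicate 1 lay above replicate 2 by a median of 3.02 for the fast genes, and for the slow genes the same difference was -0.67. With AKR F1 replicate 2 and DBA F1 replicate 1 both left out, the medians were -1.73 for fast and -0.28 for slow genes, and 7 fast and 0 slow genes passed in limma. Over all genes 1434 passed in that fit.

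Of the 40 genes 15 had more than 1 probe set. The 33 probe sets outside the brightest included 3 past the probe set test, all lower: 1 of Tnni2 (-2.00) and 2 of Myom2 (-2.26 and -2.41), where 6.73% of all 45037 probe sets were lower, 5.57% higher and 12.3% either. The second probe set of Myh4 had 3.53, 3.32 and 3.46 in AKR F1, against 7.93, 4.12 and 6.31 in DBA F1, the same order of DBA F1 arrays near a lower floor. All 3 probe sets of Myl3 had a positive difference (0.26 to 0.65), and all 6 of Trdn a negative one (-0.04 to -1.45). For Tpm1 and Tpm2, which are widely expressed outside muscle as other isoforms, the probe sets disagreed: they ranged from -1.87 to 0.19 in Tpm1 and from -1.04 to 0.24 in Tpm2. Signs also differed in Myh1 (-2.58 to 0.13), Ttn (-2.79 to 0.13), Myom2 (-2.70 to 0.11) and Mb (-0.84 to 0.16). The positive probe sets of Ttn and Myom2 lay below the lower quartile on all arrays. The second brightest probe sets of Ttn (-2.15) and Myh1 (-2.36) did not pass (adjusted p = 0.068 and 0.084 in limma). Over the 73 probe sets 17 were lower, none was higher, and 6 lay below the lower quartile on all arrays.

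Muscle genes beyond the 40 differed less. They were 84 listed genes of muscle metabolism, excitation, repair and structure, so the list is not free of sarcomere genes. Of the 80 measured 3 fell, 1 rose and 76 did not pass, where 6.04% of all genes fell and 9.20% rose. The count past the test is not above that background, and the median was -0.37. By size of difference the list did lie below all genes. In it 10 of the 80 were at least 2-fold lower, as were 0.561% of all genes. The difference was negative for 63 and positive for 17, against 7082 and 11111 of all genes. Ampd1, the AMP deaminase of fast fibres, had 4.81, 4.90 and 4.43 in AKR F1, against 7.78, 5.23 and 6.64 in DBA F1 (difference -1.84, adjusted p = 0.048 in limma). Capn3, a muscle calpain (-0.61), and Dmd, dystrophin (-0.40), also fell, and Slc2a4, the insulin-responsive glucose transporter, rose by 0.42. DBA F1 replicate 1 was the highest array for 58 of the 80 genes, as for 15.2% of all genes. With 1 array left out the number passing was 2, 1 and 1 for AKR F1 replicates 1, 2 and 3 and 8, 13 and 2 for DBA F1 replicates 1, 2 and 3, and it was 12 with AKR F1 replicate 2 and DBA F1 replicate 1 both left out. The counts over all genes in these fits were 1396, 685 and 793, then 3248, 1585 and 2147, and 1434 with both left out.

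Markers of heart, smooth muscle and muscle precursors were read beside the 40 genes. For their counts at an unadjusted p under 0.05, the count over all 18193 genes was 5645 in limma. No cardiac marker of 12 passed in limma (1 at an unadjusted p under 0.05): Mybpc3 differed by -0.32, Nppb by 0.19 and Actc1, the cardiac actin that skeletal fibres also express at a low level, by -1.62, with 5.72, 5.54 and 5.35 in AKR F1 and 8.77, 5.21 and 7.50 in DBA F1. Of the 12, 7 lay below the median of all probe sets on every array. Of the others Myl4, an atrial light chain, averaged 9.07 in AKR F1 and 9.01 in DBA F1, Mybpc3 5.56 and 5.88, and the cardiac regulator Nkx2-5 5.68 and 5.52. Myh6, the heart's own myosin, averaged 3.08 and 2.95, and Tnni3, the heart's own troponin, 3.81 and 3.99. None of 11 genes of muscle stem cells, myoblasts and immature fibres passed in limma (1 at an unadjusted p under 0.05), with differences of 0.22 for Mymk, 0.24 for Cdh15 and 0.17 for Chrnd. The embryonic and neonatal myosins Myh3 and Myh8 stayed at 2.93 to 3.42 on all arrays. Of 8 smooth muscle markers 1, Actg2, fell (-0.49), where 6.04% of all genes fell.

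As list means, tissues around the marrow varied little beside the muscle genes, while single genes in them varied more. As the mean over a list of each value minus its gene's mean, the fast genes spanned -1.70 to -0.82 in AKR F1 and -0.03 to 2.75 in DBA F1, and the slow genes -0.71 to 1.84 in AKR F1 and -1.18 to 0.54 in DBA F1. Tendon, fibroblast and nerve markers spanned -0.23 to 0.13 in AKR F1 and -0.24 to 0.39 in DBA F1. In that list 1 of 8 passed the test (Pdgfra, -0.63), where 6.04% of all genes fell. Bone and cartilage markers spanned -0.02 to 0.28 in AKR F1 and -0.43 to 0.29 in DBA F1. None of these 10 passed in limma (3 at an unadjusted p under 0.05, as were 5645 of all 18193 genes). Phex, Acan and Ibsp had the smallest p among the bone markers, with -0.43, 0.36 and -0.32. Larger differences without passing were those of the collagens Col1a1 (0.65) and Col2a1 (0.68). Col1a1 had 13.12, 13.38 and 13.00 in AKR F1, against 13.65, 11.76 and 12.14 in DBA F1. Both lists were highest in DBA F1 replicate 1 and AKR F1 replicate 2, the arrays that led the fast and slow genes, and their part in the muscle values was not tested. None of 7 adipocyte markers passed in limma (1 at an unadjusted p under 0.05), with 0.30 for Retn, -0.24 for Fabp4 and 0.08 for Lep. The endothelial genes Kdr, Eng and Cdh5 rose by 0.48, 0.68 and 0.51 (3 of 7), and the blood cell genes Elane, Cd79a, Epor and Alas2 by 0.82, 1.32, 0.66 and 0.35 (4 of 16), where 9.20% of all genes rose.

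**Figure D4:**
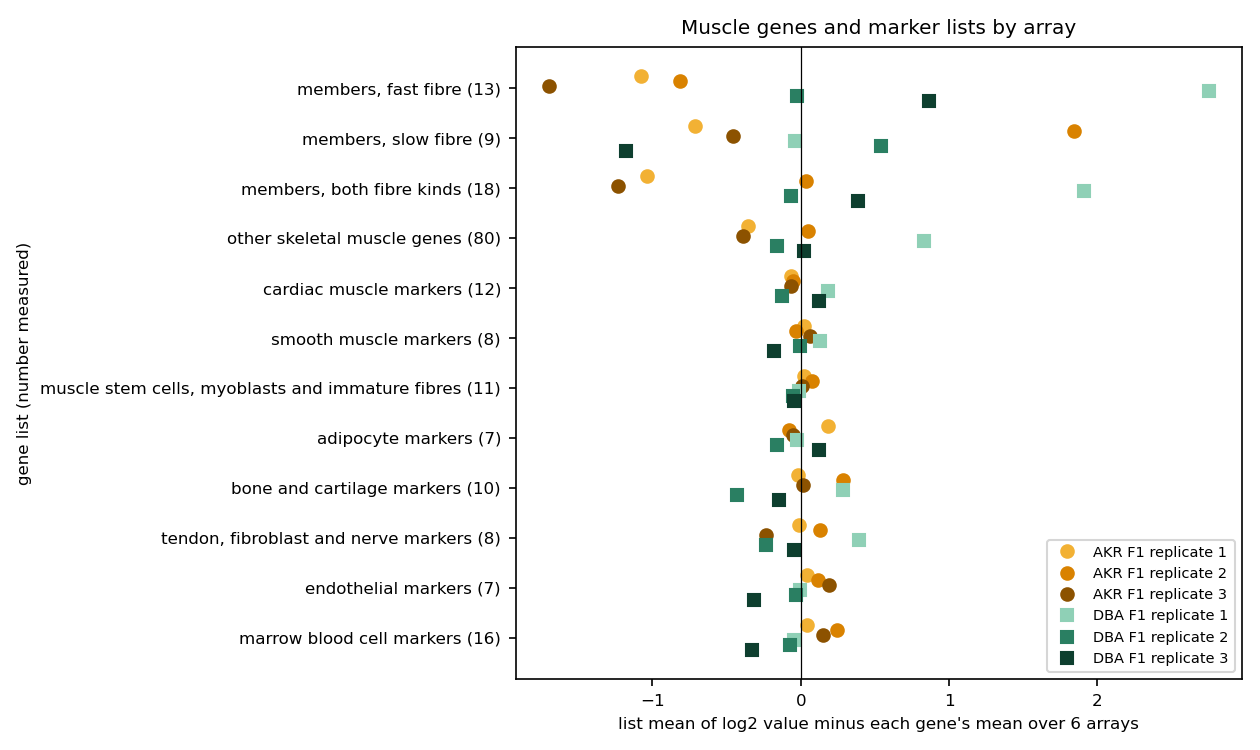
Each point is 1 array, placed by the mean over a gene list of the log2 value minus the gene's mean over 6 arrays (x axis), for 12 lists with the number of measured genes in brackets. The fast, slow and shared muscle genes spread between -1.70 and 2.75, and the lists of other tissues between -0.43 and 0.39.

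RNA controls on the arrays moved with the groups too. Signal at the 3' end minus signal at the 5' end, averaged over the actin, Gapdh and spiked poly-A control transcripts, was 1.25 to 2.03 in AKR F1 and 1.03 to 1.23 in DBA F1, and the hybridization controls averaged 10.70 to 10.88 in AKR F1 and 11.22 to 11.54 in DBA F1. With the 3' to 5' difference as a covariate no gene of the 40 passed in limma, where 21 of all genes did. At an unadjusted p under 0.05 in that fit were 24 of the 40 and 2645 of all genes. The 3' to 5' difference did not overlap between the groups, so the fit cannot cleanly separate it from the cross. The part of these controls in the values above was not tested further. The medians in that fit were -3.002 for the fast and -1.09 for the slow genes. The quartiles of the 6 arrays were close, with medians from 5.14 to 5.19.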

How the data were processed

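Total RNA of frozen marrow was extracted with Trizol, labelled with biotin and hybridised to an Affymetrix array, as the labels' protocols state. The deposited values are log2 expression values of 45101 probe sets, already normalized between arrays. Per the submitters' processing notes RMA and MAS5 were used, without role, order or version, and batches are not given in the sources used here. The number of arrays limits the precision.

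64 control probe sets were dropped. Of the other 45037 the platform's annotation gives 34945 a single symbol, 932 several and 9160 none. Symbols matched a RefSeq table (GRCm38.p6) for 18145 of 18193 genes. limma 3.58.1 in R 4.3.3 compared AKR F1 with DBA F1 over all 6 arrays (residual degrees of freedom 4) in a two-sided test with Benjamini-Hochberg adjustment over all genes, and again over all probe sets. Isoform pairs had an exact permutation test. The limma fit over genes was tested on simulated data in which genes varied independently of each other.

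The members, lists and tests were chosen with earlier results of these data known. All 40 members are named. Of other lists the genes past the test (up to 6) are named, or the 3 with the smallest p. Alternatives were other normalization, centring, filters, variance models, array weights, a block for replicate number, thresholds, the 3' to 5' covariate, averaging all probe sets of a gene, and leaving out each array. Leaving out AKR F1 replicate 2 with DBA F1 replicate 1 was added after seeing the data.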

Additional observations from a re-analysis of the deposited data

How the results depend on the processing

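The 13 fast genes kept a negative difference in the 12 of 17 alternatives that can move an estimate. Their median, -2.46, ranged from -3.18 to -1.66 when 1 array was left out. The fast minus slow median, -3.02, ranged from -4.16 to -2.22 and was -1.91 with the 3' to 5' covariate and -1.94 with array weights. The median of the shared genes, -1.69, ranged from -2.25 to -0.95 and was -1.002 with all probe sets of a gene averaged. Leaving out 1 array gave 685 to 3248 genes, 0 to 21 of the 40 genes, 0 to 10 fast genes, 1 to 13 other muscle genes and 0 to 27 member probe sets past the test. With the 3' to 5' covariate the counts were 21 genes and 0 in each muscle list and of the probe sets, and the slow median was -1.09. At a threshold of 0.01 they were 526 genes, 0 of the 40, 0 fast, 1 other muscle gene and 0 probe sets, and at 0.10 they were 4243 genes, 12 other muscle genes and 27 probe sets. With a variance trend and robust estimation 2772 genes, 1 of the 40, 0 fast genes and 1 probe set passed. Without both AKR F1 replicate 2 and DBA F1 replicate 1, 1434 genes and 12 other muscle genes passed, and the fast minus slow median was -1.45. With the replicate number as a block 1 slow gene, Myh7, passed (0.91, adjusted p = 0.046 in limma), 19 of the 40 and 2357 genes passed, and no other count moved by over 1.5 times. The deviations of same-numbered arrays correlated at 0.01, -0.06 and 0.07 over genes, not every array went best with its own number, and the numbers do not pair the arrays.

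Genes that did not pass changed sign as follows, and the cause was not tested. With the 3' to 5' covariate Tpm2 was at -0.16, Casq2 at -0.17, Myl3 at -0.58, Tnnt1 at -0.84, Myh7 at -0.96, Tnni1 at -1.09, Tnnc1 at -1.16, Myl2 at -1.43, Myoz2 at -1.80 and Fabp4 at 0.16. With array weights Casq2 was at -0.00192, Myl3 at -0.013 and Myoz2 at -0.26. Without both arrays named above Casq2 was at -0.012, Tnnt1 at -0.060, Tnnc1 at -0.14, Myl3 at -0.28, Myoz2 at -0.37, Tnni1 at -0.42 and Myh7 at -0.44, and the pair Myoz1 over Myoz2 at 0.056. With all probe sets of a gene averaged, Tpm2 was at -0.18. Leaving out 1 array gave -0.14 to 1.58 for Myh7, -0.12 to 1.62 for Myl2, -0.23 to 0.53 for Myl3, -0.10 to 0.98 for Tnnt1, -0.25 to 1.29 for Tnni1, -0.024 to 1.92 for Tnnc1, -0.70 to 0.72 for Myoz2, -0.082 to 0.16 for Casq2, -1.03 to 0.49 for Actn2, -0.39 to 0.021 for Myom1 and -0.61 to 0.14 for Des.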
